A study of Mus musculus with 8 samples.

Results

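The genes described here are the ligands, receptors, antagonists and nearest partners of the Wnt pathway in pancreatic islets of mice on a high fat diet. Members were picked by symbol, and no intensity entered the rule. All genes on the array whose symbol is Wnt, Fzd, Sfrp, Dkk or Rspo followed by a digit were taken, together with Dkkl1, Lrp5, Lrp6, Lgr4, Lgr5, Wif1, Axin1, Axin2 and Ctnnb1, and this gave 51 of the 18194 genes that have a probe set of their own. One of them, Fzd10os, is a transcript from the strand opposite to Fzd10 and enters through its symbol. The samples were islets of male C57Bl/6J mice, weaned at 4 weeks of age onto regular rodent chow (NC) or a diet with 45 kcal% fat (HF), with 4 samples on each diet. The labels give 12 weeks on diet, while the study's methods give a longer time. Each sample pooled the islets of a pair of mice, so that n counts pools. A p-value here weighs the diet difference against the spread between pools. Both groups share this strain, which carries a deletion in Nnt, a mitochondrial gene, so that neither diet was seen without it.

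Wnt proteins are secreted lipid-modified ligands. They bind the cysteine-rich domain of Frizzled (Fzd) receptors, which act with the coreceptors Lrp5 and Lrp6 to stop the Axin complex from marking beta-catenin (Ctnnb1) for destruction, and beta-catenin then works in the nucleus with TCF/LEF factors. Secreted Frizzled-related proteins (Sfrp) carry a Frizzled-like domain and can bind Wnt outside the cell, and Dickkopf proteins (Dkk) act mainly at Lrp5 and Lrp6. R-spondins (Rspo) bind Lgr receptors and keep Frizzled at the cell surface by holding back the ubiquitin ligases Znrf3 and Rnf43. In the pancreas, Wnt signalling has been studied in beta cell growth and in the mesenchyme around the developing epithelium.

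Values are GCRMA intensities, the brightness of a probe set on a linear scale after the authors' background adjustment and normalization across arrays. They compare samples for one probe set and do not rank genes against each other. The samples had a median intensity of 13.03 to 13.81 over the array. A probe set was retained by its third-highest intensity over the 8 samples, and the lowest such level kept was 8.82. Of the 97 probe sets of the 51 genes, 45 probe sets of 27 genes were retained. These were 6 of 19 ligands, 11 of 15 receptors and coreceptors, 4 of 10 secreted antagonists, 3 of 4 R-spondins and all 3 intracellular genes. Fzd10os is counted with the receptors and Dkkl1 with the secreted antagonists, and neither was tested for that role. A change was counted where limma gave an adjusted p under 0.05 over all retained probe sets together with a fold change of at least 1.5. Where a gene had several retained probe sets, the one with the highest mean log2 intensity stood for the gene and is called its brightest below, and differences are log2 fold changes of HF over NC unless said otherwise.

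Among the 27 retained genes, 4 were lower in HF islets, and they were the antagonists Sfrp1 and Sfrp5, the receptor Fzd4 and the R-spondin Rspo2. No ligand and no intracellular member passed. With values under 8.82 raised to that level, 3 were lower and Rspo2 did not pass. Over all 12299 retained genes, 4.28% were lower by the same rule, and 4 of 27 is a larger share than that, on a small count whose excess was not tested. None of the 27 was higher, against 0.447% of all genes. At an unadjusted p under 0.05, 8 of the 27 genes were counted in either direction, against 22.5% of all genes. All HF samples lay below all NC samples in 5 of the 27, which were the 4 called genes and Fzd1, against 10.3% of all genes, and none had all HF samples above all NC samples, against 5.75%. The median difference was -0.05 over the members and 0.00 over all genes, with 17 members below 0 and 10 above. Counted by probe set, 5 of 45 were lower and 0 higher, against 3.06% and 0.644% of all retained probe sets.

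**Figure D1:**
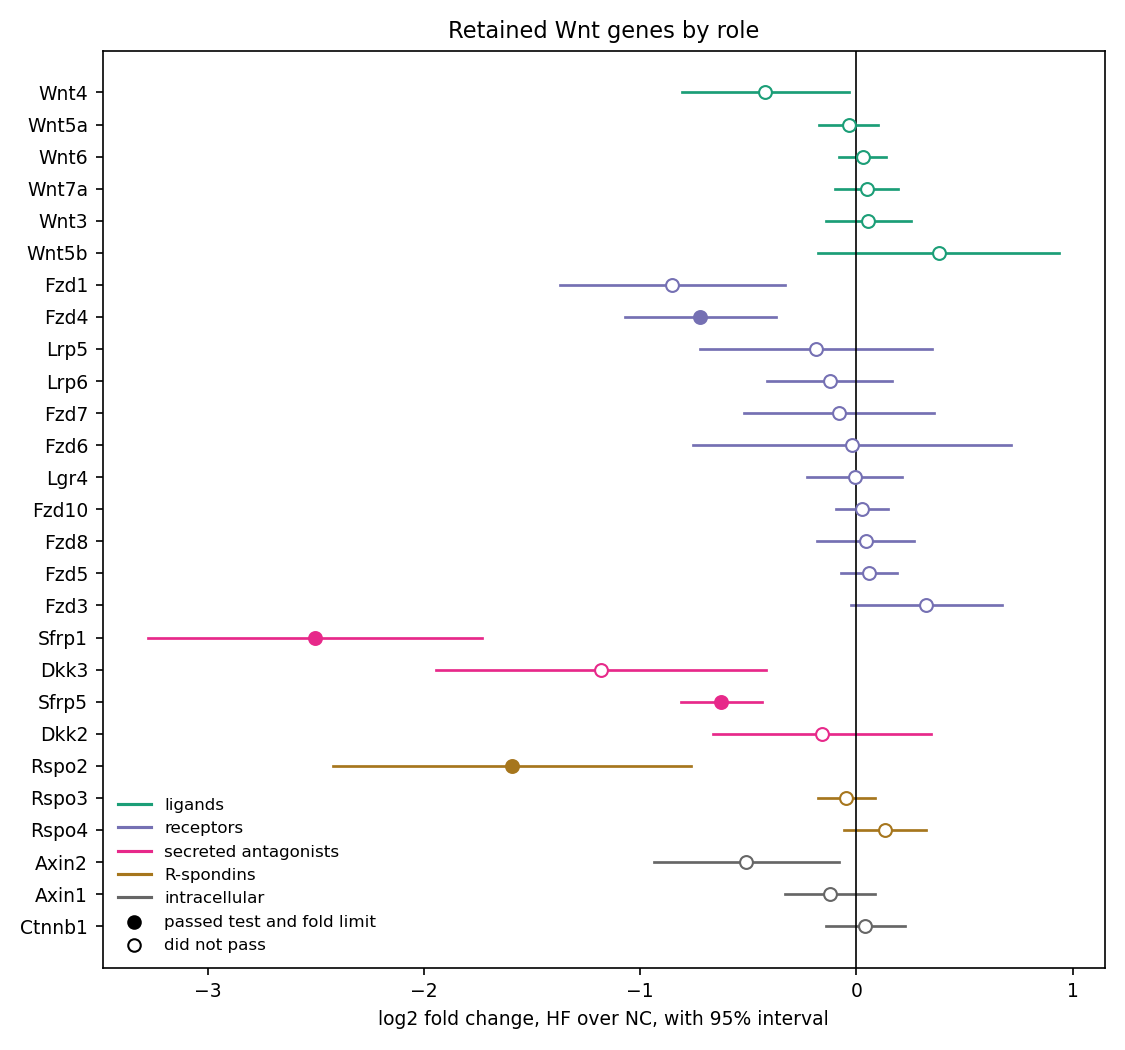
Log2 fold change of HF over NC (x axis) for the 27 retained genes, ordered by role, with limma's 95% interval and filled points where the test and the fold limit were passed. The filled points are Fzd4 at -0.72, Sfrp1 at -2.50, Sfrp5 at -0.62 and Rspo2 at -1.59, and all 6 ligands are unfilled.

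Reference sequence of the start region, 250 bases before to 50 bases after the annotated start, was looked up for the members in RefSeq on build GRCm38.p6, and 32 of the 51 genes were found in that table. Of the called genes these were Fzd4 and Sfrp5. They are shown because they are the called genes for which the letters can be read, 5′ to 3′ on the gene's strand, with matches to the GC box GGGCGG on either strand in capitals. Fzd4 lies at chr7:89404116-89404415 on the plus strand and Sfrp5 at chr19:42202203-42202502 on the minus strand.
Fzd4: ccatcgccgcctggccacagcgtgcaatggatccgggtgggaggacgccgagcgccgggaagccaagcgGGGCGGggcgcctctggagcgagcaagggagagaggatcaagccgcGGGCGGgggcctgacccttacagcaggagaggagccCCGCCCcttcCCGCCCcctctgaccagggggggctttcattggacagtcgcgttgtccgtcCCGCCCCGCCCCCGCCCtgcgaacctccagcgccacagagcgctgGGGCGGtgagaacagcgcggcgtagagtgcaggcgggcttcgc
Sfrp5: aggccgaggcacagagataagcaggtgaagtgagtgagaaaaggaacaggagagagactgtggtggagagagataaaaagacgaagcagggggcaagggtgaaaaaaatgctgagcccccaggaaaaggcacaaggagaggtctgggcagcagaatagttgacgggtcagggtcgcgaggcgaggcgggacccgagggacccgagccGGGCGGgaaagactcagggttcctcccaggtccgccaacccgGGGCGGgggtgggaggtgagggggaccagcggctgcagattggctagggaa
The Fzd4 window is 72.7% G and C with 8 matches, of which some overlap, and the Sfrp5 window is 61.3% G and C with 2 matches, while the windows of all members ran from 48.3% to 86.3% with a median of 69.5%. The GC box was found in 26 of the 36 member windows and in 35.7% of the 32851 windows of all genes. Letters of the TCF/LEF core, searched as CTTTGAA or CTTTGAT or CTTTGTA or CTTTGTT on both strands, occur in neither of the printed windows, in 5 of the 36 member windows and in 16.9% of all windows. A match is a run of letters and not a measured binding site.

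The secreted antagonists held the largest difference of any retained member. Sfrp1, which binds Wnt proteins and in some settings Frizzled itself, has 4 retained probe sets and 1 that was not retained. On the one with the highest mean log2 intensity (1428136_at), which stands for the gene, the intensity was 126.9, 90.8, 80.6 and 90.9 in the NC samples and 13.8, 32.6, 18.0 and 10.1 in the HF samples. Every HF sample lay under every NC sample, and the highest HF sample, replicate 22, was well under the lowest NC sample. The mean intensity was 97.3 ± 20.3 for NC against 18.6 ± 9.85 for HF (SD over 4 samples). The difference of mean log2 values was -2.50 (standard error 0.33, limma adjusted p = 0.00533), a fold of 5.67 on that scale. A second probe set (1460187_at) has the higher mean on the linear scale and a larger difference. Here the NC samples had 189.9, 119.7, 70.01 and 106.7 and the HF samples 7.99, 15.3, 14.5 and 7.97. Among these, 2 HF samples fell under the level of 8.82, and the difference was -3.39 (standard error 0.34, adjusted p = 0.00198 from limma), or -3.32 with those values raised to that level. By exact two-sided permutation, p was 0.0286 on both, the smallest that 4 against 4 samples allow.

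The other retained probe sets of Sfrp1 were dim and did not pass. On 1448395_at the range was 15.2 to 20.5 on NC and 11.7 to 15.4 on HF (difference -0.33, adjusted p = 0.171 from limma). On 1438620_x_at, whose suffix marks probes that can also match other transcripts, the NC samples spread from 6.56 to 27.1 and the HF samples from 5.35 to 9.27 (difference -0.78, adjusted p = 0.393 from limma). All 4 differences of Sfrp1 had the same sign, and their size differed by probe set.

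Sfrp5 was the other retained gene with an Sfrp symbol. On its brighter probe set (1436075_at) it had 1056, 985, 904 and 919 in the NC samples and 681, 571, 593 and 665 in the HF samples. The samples of each diet lay close together and the diets did not overlap. The difference was -0.62 (standard error 0.08, adjusted p = 0.00483 from limma), 1.54-fold and so close to the fold limit. The second probe set (1423023_at) had 634, 471, 483 and 454 in NC and 409, 351, 320 and 356 in HF, again without overlap. Its adjusted p of 0.0521 from limma missed the threshold (difference -0.50). Frzb, an extracellular regulator that the symbol rule left out of the members, did not pass. Its mean intensity was 11040 in NC and 10225 in HF (difference -0.11, adjusted p = 0.464 from limma), and the diets overlapped.

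The differences of Sfrp1 and Sfrp5, each on its brightest probe set, were also set against each other. Taken within each sample as the log2 ratio of Sfrp1 to Sfrp5, values ran from -3.49 to -3.06 on NC and from -6.04 to -4.13 on HF, a shift of -1.88. An exact two-sided permutation test gave p = 0.0286. It was 0.0571 with adjustment over the 4 families, taken by symbol, of which exactly 2 members were retained. This set of pairs was chosen after the values were seen. Since 0.0286 is the smallest p of this design, such an adjustment could pass here only with most pairs at that value. Which gene had the larger difference also depended on the probe set, since the dim Sfrp1 probe set 1448395_at differed by -0.33 and so by less than Sfrp5.

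Dkk3, a Dickkopf-family glycoprotein that differs from the others in not being an established Lrp5/6 ligand, had intensities of 44.8, 51.3, 40.7 and 23.7 in NC and 17.3, 9.61, 20.6 and 24.4 in HF. NC replicate 5 and HF replicate 24 crossed, and the difference of -1.18 (standard error 0.33) did not pass (adjusted p = 0.0812 from limma). Its dimmer probe set had 15.0, 13.5, 14.2 and 8.49 in NC and 7.22, 7.14, 8.85 and 7.22 in HF, with NC replicate 5 again the lowest of its group, and missed the threshold too (difference -0.72, adjusted p = 0.0569 from limma). Dkk2, an Lrp6 ligand, ranged from 21.2 to 25.4 in NC and from 12.7 to 27.9 in HF. In the same set of pairs, chosen after the values were seen, the ratio of Dkk3 to Dkk2 shifted by -1.02. All HF samples lay below all NC samples in this ratio (exact permutation p = 0.0286, 0.0571 with adjustment over the same 4 families). Dkk3 alone overlapped and did not pass, and the ratio was taken on its brightest probe set only. Of the genes grouped with the antagonists, Dkk1, Dkk4, Dkkl1, Sfrp2, Sfrp4 and Wif1 had no retained probe set, so a change in them was not detectable here.

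**Figure D2:**
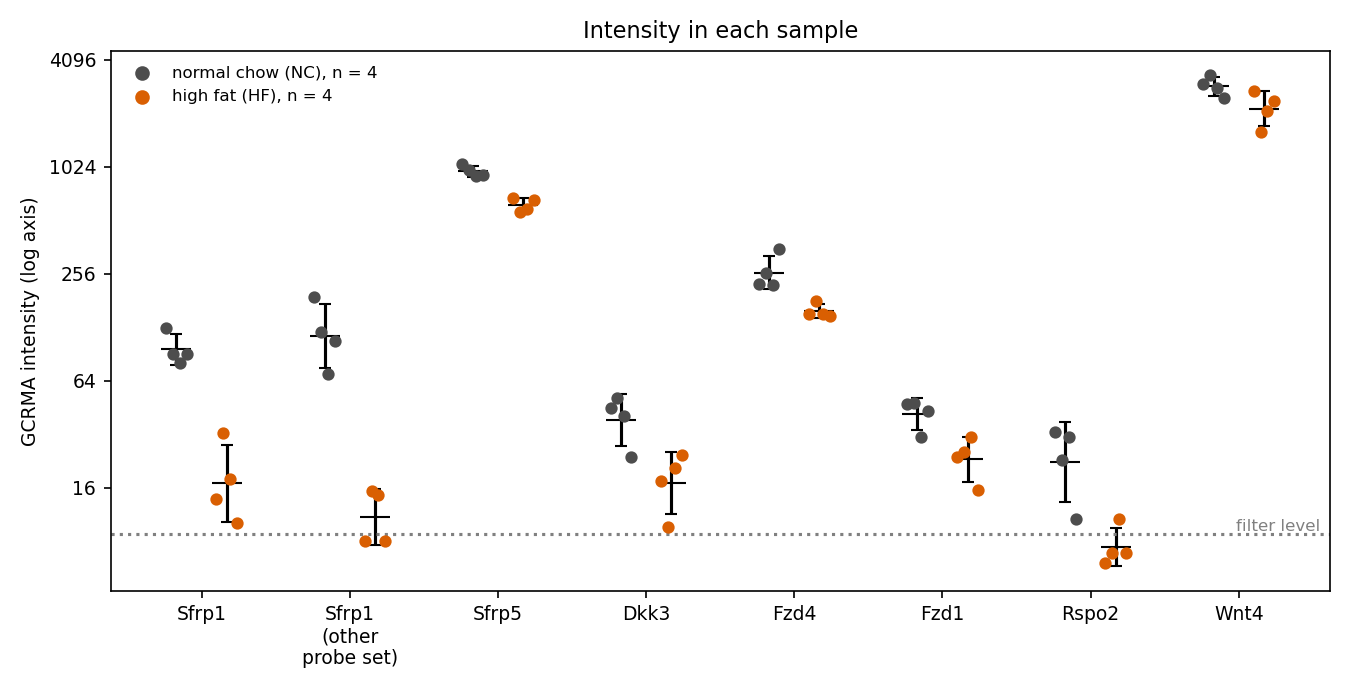
GCRMA intensity (log axis) of each of the 4 NC and 4 HF samples for the probe sets that passed and for the brightest probe sets of Dkk3, Fzd1 and Wnt4, with the mean of the log2 values and its SD. Both Sfrp1 probe sets, Sfrp5, Fzd4, Fzd1 and Rspo2 show no overlap of the diets, Dkk3 and Wnt4 do, and the dotted line is the level of 8.82.

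Of the receptors, Fzd4 was lower and none was higher by the rule. Fzd4, the Frizzled that also answers to Norrin and is known for its part in blood vessel development, had 225, 258, 222 and 353 in NC and 152.5, 180.7, 151.4 and 147.9 in HF on its brightest probe set (1434756_at). NC replicate 5 stood above the other NC samples, and no HF sample reached the lowest NC sample. The difference was -0.72 (standard error 0.15, adjusted p = 0.0312 from limma), 1.65-fold. A second probe set (1419301_at) gave 152.3, 198.9, 200.1 and 189.3 in NC and 142.6, 141.9, 135.5 and 129.9 in HF. It passed the adjusted p but not the fold limit (difference -0.42, adjusted p = 0.0389 from limma). The third, at 17.5 to 24.03 in NC and 12.7 to 38.8 in HF, showed no difference beyond its spread (-0.01, 95% interval -0.71 to 0.69).

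Fzd1 had 47.4, 48.1, 30.9 and 43.0 in NC and 23.7, 25.4, 30.8 and 15.5 in HF. The diets did not overlap, although the lowest NC sample (30.89) and the highest HF sample (30.84) were almost equal. The difference of -0.85 (standard error 0.23) missed the threshold (adjusted p = 0.0691 from limma, exact permutation p = 0.0286).

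Fzd3, a Frizzled best known for axon guidance and planar polarity, had differences above 0 on its 4 retained probe sets, of 0.32, 0.34, 0.35 and 0.32, while its other probe sets were not retained and differed by 0.01. On 1450135_at the NC samples had 597, 511, 541 and 473 and the HF samples 651, 693, 697 and 642, so that every HF sample was above every NC sample. The adjusted p was 0.0423 from limma, with a fold of 1.27 that is under the limit of 1.5. The other 3 retained probe sets overlapped between the diets, with adjusted p from 0.259 to 0.369 (limma). With no fold limit, 6 member probe sets were lower and 1 was higher of 45, against 4.13% and 2.03% of all retained probe sets, and the one that was higher is this Fzd3 probe set. The Fzd3 and Fzd4 differences were not tested against each other.

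The remaining receptors and coreceptors had differences from -0.19 for Lrp5 to 0.06 for Fzd5 on their brightest probe sets. The second retained probe sets of Fzd6 and Fzd8 differed by 0.32 and 0.36 with adjusted p of 0.441 and 0.383 (limma). Lrp6, the main Wnt coreceptor, had 970, 859, 911 and 831 in NC and 824, 636, 956 and 894 in HF (difference -0.12, 95% interval -0.41 to 0.17). Lgr4, the R-spondin receptor of many tissues, had 919, 846, 1013 and 813 in NC and 972, 792, 855 and 952 in HF (difference -0.01, 95% interval -0.23 to 0.21). Fzd2, Fzd9, Fzd10os and Lgr5 had no retained probe set.

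**Figure D3:**
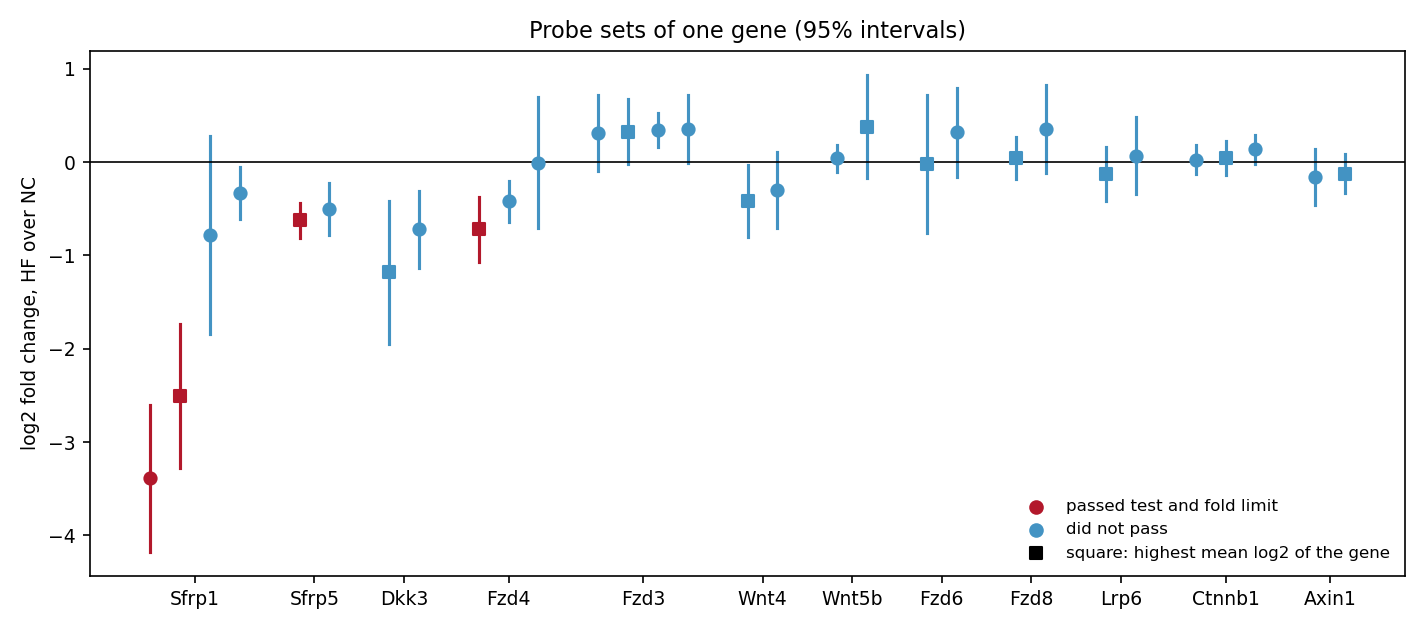
Log2 fold change of HF over NC (y axis) with limma's 95% interval for each retained probe set of the 12 genes that have more than 1, in red where the test and the fold limit were passed, with a square for the probe set of highest mean log2 intensity. Sfrp1 runs from -3.39 to -0.33 and Fzd4 from -0.72 to -0.01, while the 4 retained probe sets of Fzd3 lie between 0.32 and 0.35.

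Of the R-spondins, which raise the response to Wnt, Rspo2 was lower. Its retained probe set (1455893_at) had 32.9, 23.03, 30.8 and 10.65 in NC and 6.04, 6.82, 10.61 and 6.88 in HF. NC replicate 5 was nearly as low as the highest HF sample, and 3 HF samples lay under the level of 8.82. The 3 highest values, which decided that the probe set was retained, were all from NC samples. The difference was -1.59 (standard error 0.36, adjusted p = 0.0403 from limma), and with low values raised to that level it was -1.27 with an adjusted p of 0.0648, which does not pass. Rspo4 had 125.9, 124.9, 120.9 and 101.7 in NC and 132.3, 120.5, 137.5 and 127.6 in HF (difference 0.13, adjusted p = 0.423 from limma), and Rspo3 stayed within 8.47 to 9.80 on both diets, near the filter level. Rspo1 had no retained probe set.

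None of the 6 retained ligands changed by the rule. Wnt4, a ligand whose branch of the pathway was not tested here, had 2994, 3355, 2859 and 2496 in NC and 2738, 1600, 2124 and 2402 in HF. The samples overlapped through HF replicate 21, and the difference of -0.42 did not pass (adjusted p = 0.201 from limma, 95% interval -0.80 to -0.04). The second Wnt4 probe set gave -0.30 (adjusted p = 0.394 from limma). Wnt5b is of the group that acts mainly through planar polarity and calcium. Its brighter probe set (1439373_x_at) has the suffix that marks probes that can also match other transcripts. There the NC samples had 26.3, 23.8, 24.5 and 12.99 and the HF samples 23.9, 35.7, 23.3 and 28.9. The difference was 0.38 (adjusted p = 0.431 from limma). The second Wnt5b probe set (1422602_a_at) differed by 0.04 (adjusted p = 0.804 from limma). Wnt3, Wnt5a, Wnt6 and Wnt7a were dim, at 8.07 to 18.5 in all samples, with differences from -0.04 to 0.05. The other 13 ligands had no retained probe set. Over all members, the 52 probe sets not retained had values from 2.12 to 8.83 and differences from -0.08 to 0.04.

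Inside the cell, Ctnnb1 had 12615, 12756, 13230 and 12178 in NC and 12431, 14674, 11631 and 13681 in HF, with differences of 0.04, 0.03 and 0.14 on its 3 retained probe sets and adjusted p from 0.305 to 0.880 (limma). This is mRNA only, and the amount or place of the beta-catenin protein was not measured on these arrays. Axin1, the scaffold of the destruction complex, gave -0.12 and -0.16. Axin2, a feedback inhibitor that beta-catenin itself switches on in many tissues, had 96.2, 71.3, 64.0 and 58.2 in NC and 46.8, 40.9, 65.0 and 50.1 in HF. HF replicate 23 overlapped with the NC samples and the difference of -0.51 did not pass (adjusted p = 0.168 from limma).

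Other genes of the pathway were taken from 5 lists of 83 genes in all, of which 59 were measured. Of these 2 were lower, a share below the 4.28% of all genes, and 0 were higher. At an unadjusted p under 0.05 there were 13, against 22.5% of all genes, and the median difference was -0.05. Both that were lower act outside the cell. Sostdc1, a secreted antagonist of Wnt and BMP, had an intensity of 169 ± 39.8 on NC and 65.9 ± 11.2 on HF (SD over 4 samples, difference -1.34, adjusted p = 0.00680 from limma). Gpc6, a cell surface heparan sulfate proteoglycan, had 81.3 ± 4.56 in NC and 44.3 ± 9.20 in HF (difference -0.90, adjusted p = 0.00902 from limma). None of the 23 measured genes of the destruction and transcription complexes, the 15 of the planar polarity and calcium branch or the 7 transcriptional targets of beta-catenin passed. Csnk1e, a casein kinase of the pathway, passed the adjusted p but not the fold limit (difference -0.43, adjusted p = 0.0139 from limma), with all HF samples below all NC samples. The target list held 15 genes, and Nkd2, Sp5, Ccn4, Ccn5, Fosl1, Tnfrsf19, Ascl2 and Mmp7 were not retained, so a change in them was not detectable. Of the 7 measured targets, 4 had an unadjusted p under 0.05, against 22.5% of all genes. All HF samples lay above all NC samples in 2 of the targets and below them in 1, against 5.75% and 10.3% of all genes. The lowest adjusted p values were those of Cd44 (difference 0.33, adjusted p = 0.0908 from limma), with all HF samples above all NC samples, and Jun (difference -0.40, adjusted p = 0.107 from limma), with all below. Ccnd1 differed by 0.11, Ccnd2 by 0.11 and Myc by -0.43, with adjusted p from 0.178 to 0.512 (limma).

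Markers of the cell types that islet preparations can hold were measured beside the members. Of the fibroblast and stellate cell markers, 12 of 15 listed genes were measured and all 12 were lower in HF, with a median difference of -2.28 and a summed intensity of 13419 to 19312 in NC and 2744 to 4873 in HF. Twist1, Twist2 and Fap were not retained. Of the mural cell markers 5 of 7 measured were lower and of the leukocyte markers 4 of 8. Of the endothelial markers 2 of 8 were lower and of the Schwann cell markers 2 of 5. Over all retained genes, 4.28% were lower and 0.447% higher. None of the 10 measured beta cell markers, 4 alpha cell, 3 delta and PP cell, 7 acinar, 5 duct and 1 mesothelial cell markers passed in either direction. The beta cell markers had a median of 0.11, with 9 above 0. All HF samples lay above all NC samples in 4 of them, against 5.75% of all genes. Of these 4, Pcsk1 passed the adjusted p but not the fold limit (difference 0.34, adjusted p = 0.0312 from limma). All HF samples lay below all NC samples for Irx1 (-0.81) and Irx2 (-0.78) of the alpha cell markers. The same held for Ppy (-0.25), Ptf1a (-0.64) and Krt19 (-1.77), and the other markers of these lists overlapped. In bulk RNA, fewer cells of a type and less RNA per cell cannot be told apart.

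The summed endothelial markers ran from 14473 to 16542 on NC and from 11082 to 12551 on HF. Mural sums ran from 11258 to 12554 and from 7540 to 8791, in that order. Leukocyte sums ran from 2422 to 2851 and from 1224 to 1364, and Schwann cell sums from 1476 to 1673 and from 1234 to 1349. Delta and PP cell sums, from 92845 to 94366 and from 77615 to 89157, were lower in HF as well. Beta cell sums were higher in HF, from 258257 to 264265 and from 273807 to 288284. The sums of the alpha, acinar, duct and mesothelial markers overlapped. The part of these cell types in the differences of Sfrp1, Sfrp5, Fzd4 and Rspo2 was not tested. The sums add probe sets of different brightness and are carried by those with the highest values.

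**Figure D4:**
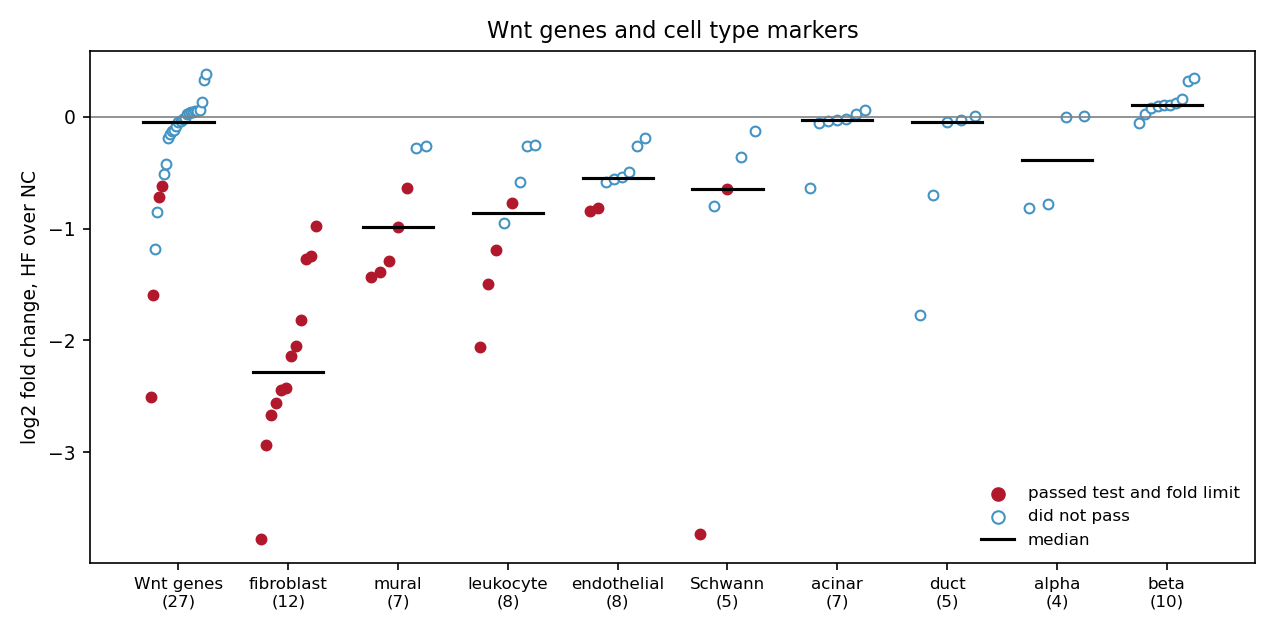
Log2 fold change of HF over NC (y axis) of each measured gene, by its brightest probe set, for the 27 Wnt genes and for 9 marker lists (number of genes in brackets), filled where the test and the fold limit were passed, with a bar at the median. The Wnt genes have their median at -0.05 with 4 filled points, and the fibroblast markers have 12 of 12 filled and a median of -2.28.

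Single samples moved the count of called members. Without NC replicate 1, NC replicate 2, HF replicate 21, HF replicate 22 or HF replicate 24 the count was 2 of 27 in place of 4. No fit with a sample left out called the same 4 genes, since Fzd4 and Rspo2 were never called together. Over the 8 fits that leave out 1 sample each, Sfrp1 was called in all 8, Sfrp5 in 6, Fzd4 in 3 and Rspo2 in 2. The Sfrp5 difference fell under the fold limit without NC replicate 1 or HF replicate 22 (both -0.58), and the Rspo2 call held only without NC replicate 5 or HF replicate 23. Fzd4 was not called without NC replicate 2, HF replicate 21, HF replicate 23 or HF replicate 24, where its adjusted p was 0.0706 to 0.0928 (limma), nor without NC replicate 5, where the difference of -0.57 was under the fold limit. Fzd1 was called without NC replicate 4 (-0.995) and Dkk3 without NC replicate 5 (-1.42).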

How the data were processed

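Total RNA of hand-picked islets from 4 NC and 4 HF pools was hybridised to Affymetrix mouse expression arrays, 1 per sample. The authors computed the deposited intensity values from the array images with ArrayAssist Lite 3.4 by GCRMA, a method that models background from probe sequence and makes arrays comparable, and low values carry little information. The values are linear and were taken to log2 here with no further normalization. In place of present calls, which were not used here, probe sets were retained by their third-highest intensity, without regard to diet, as many as the study kept. Probe sets were named by the platform annotation, and 22017 retained ones belong to 1 gene. HF and NC were compared with limma 3.58.1 in R 4.3.3 (lmFit, eBayes, Benjamini-Hochberg over all retained probe sets), checked on simulated data. Exact permutation tests used all 70 arrangements. The text names the members that passed, the brightest retained members of each role and Wnt4, Sfrp1, Fzd1 and Dkk3. The members and lists were chosen with earlier results of these data known, and genes named beside these were picked with their values in view. Alternatives covered the filter, scaling, low values, the model, thresholds, probe set choice, the methods' Student test and leaving out each sample. SAM was not run. The number of arrays limits the precision.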

Additional observations from a re-analysis of the deposited data

Results flagged for a closer look

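In each retained probe set of the named members, the highest and the lowest sample of each diet were set against the other 3. Of 66 groups in 33 probe sets, 6 held a sample whose gap to its nearest neighbour exceeded Dixon's critical share of the range of its group, and chance gives about 1 in 20. HF replicate 22 was high for Fzd4 on its brightest probe set, at 180.7 against 147.9 to 152.5 (share of the range 0.846), so that the lower level in HF was least marked there. HF replicate 23 stood apart on 4 probe sets, high for Dkk3 (8.85 against 7.14 to 7.22, share 0.947) and Wnt5b (13.2 against 11.2 to 11.5, share 0.864) and low for Ctnnb1 (3001 against 3493 to 3584, share 0.854) and Sfrp1 (5.35 against 8.62 to 9.27, share 0.868), the last on its probe set with the suffix that marks shared probes. NC replicate 5 was low for the brighter Wnt5b probe set, at 12.99 against 23.8 to 26.3 (share 0.860).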

How the results depend on the processing

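The count of 4 member genes lower in HF was 2 with no filter, with the methods' Student test after adjustment and at an adjusted p under 0.01, where Sfrp1 and Sfrp5 were called, and 2 to 4 when each sample was left out in turn. The count of 5 member probe sets lower was 3 under the same 3 settings, 8 with the unadjusted Student test, 9 with scaling on beta cell markers and 3 to 6 when samples were left out. With no fold limit 1 member probe set was higher in place of 0. With the mean of all retained probe sets of a gene, 1 other Wnt pathway gene was lower in place of 2, and Dkk3 and Fzd1 were called while Fzd4 and Sfrp5 were not. Scaling on beta cell markers moved the median of all genes to -0.13 and there Dkk3 and Fzd1 were called as well, giving 6. Among the named members, the sign changed only for 3 whose difference was near 0. Lgr4 became 0.0044 with median centring and ran from -0.054 to 0.051 with samples left out, Ctnnb1 became -0.088 with beta cell scaling and ran from -0.016 to 0.096, and Wnt3 became -0.074 with beta cell scaling and ran from -0.011 to 0.11. The cause was not tested. Sfrp1 was called under all 22 alternatives on both probe sets. No paired analysis was possible because the diets share no replicate numbers. Values near the filter level carry little signal over background. The folds of Rspo2, Krt19 and the dim Sfrp1 and Dkk3 probe sets are therefore the least certain.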
